A study of Trichoderma reesei with 8 samples.

Results

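Light and darkness were compared in the deletion strain ∆*ypr2* of the cellulose-degrading fungus *Trichoderma reesei*, and genes with raised or lowered transcript levels in light were sought across the genome. Both groups lacked *ypr2*, which encodes a transcription factor of the cluster for sorbicillinoid pigments (the SOR cluster). The ∆*ypr2* cultures were grown for 72 h at 28 °C and 200 rpm in liquid minimal medium with 1% microcrystalline cellulose and 0.1% peptone, 2 of them in constant light of 1600 lx and 2 in constant darkness. These 4 libraries of the 8 in the series carry the comparison. The other 4 are wildtype QM6a cultures from the same 2 light conditions. They show where the response differed between strains, and they also entered the gene filter, the scaling and the estimate of spread behind the p values. Plates for the inoculum had been kept in darkness for 14 days, and dark cultures were harvested under red safety light. A single deletion strain stands for the genotype, and the 2 cultures of a group are biological replicates as the study describes them.

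Filamentous fungi sense blue light mainly through the White Collar type photoreceptors, which are named BLR1 and BLR2 in *Trichoderma*, and through the smaller photoreceptor ENV1, which is itself made in response to light. Light changes metabolism, the formation of asexual spores and, in *T. reesei*, the transcription of genes for cellulases, the secreted enzymes that break cellulose down to sugars. A transcript level of mycelium is an average over all cells of a culture, so fewer cells of a kind and less RNA per cell cannot be told apart.

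Summed values of a library were between 16.9 and 22.9 Mio, and a single count was worth 0.0438 to 0.0579 CPM (counts per Mio after scaling). The first principal component of the 8 libraries held 76.4% of the variance and separated light from darkness in both strains. The 2 ∆*ypr2* cultures from darkness stood apart from each other more than those of any other group. Among genes averaging 5 CPM or more, 33 of 7396 had levels over 2-fold apart in the dark pair, and 5 of 7060 in the light pair. Counts of *ypr2* (TR_102497) were 0 and 0 in ∆*ypr2* in light and 10 and 6 in ∆*ypr2* in darkness, against 30.9 and 31.6 CPM in the wildtype in light and 165 and 153 CPM in the wildtype in darkness.

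Of 8469 genes tested, 323 (3.81%) were upregulated and 1123 (13.3%) were downregulated in light in ∆*ypr2*, and 7023 did not pass the threshold of at least 2-fold at an adjusted p under 0.01 (quasi-likelihood F test of edgeR, Benjamini-Hochberg adjustment over all genes tested). Upregulated genes were 22.3% of those called. The split was different under quantile normalization with limma, which called 635 genes up- and 822 downregulated (43.6% up) and moved the median log2 fold change of all genes to 0.12, against -0.00 in the edgeR fit. The median log2 fold change was 1.74 among upregulated and -2.21 among downregulated genes. Large changes were more frequent on the side of the downregulated genes: among genes with more than 3 counts in the lower group, 137 fell and 34 rose at least 16-fold, and 45 fell and 6 rose at least 64-fold. Another 76 downregulated genes had 3 counts or fewer over both light cultures, 24 of them 0.

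**Figure D1:**
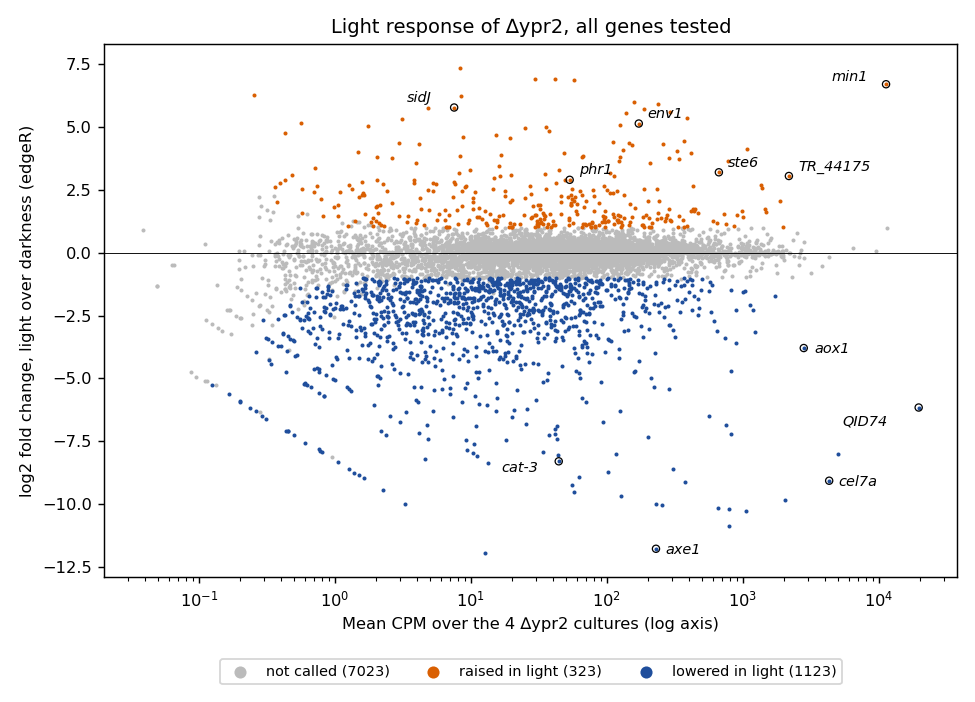
Light response of ∆*ypr2* for the 8469 genes tested, with the mean CPM over the 4 ∆*ypr2* cultures on a log axis and the log2 fold change of light over darkness from edgeR on the other; orange points were upregulated (323), blue points downregulated (1123) and grey points not called (7023). The blue points reach far below the range that the orange ones reach above 0; the straight row of points at the lower left holds genes with 0 counts in light, whose fitted fold depends on the prior count.

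In summed counts, the 323 upregulated genes took 9.97 and 9.09% of a library in light, against 1.78 and 1.88% in darkness. The 1123 downregulated genes took 2.33 and 2.59% in light, against 17.6 and 16.3% in darkness. These shares describe genes chosen by the same contrast. A name was available for 56 of the upregulated and 319 of the downregulated genes, mostly from an annotation table of genes that had been picked for a difference between the strains in these same libraries. Counts over gene lists built from that table are therefore not independent evidence of a direction. They are to be set beside the named genes as a whole, of which 889 were tested. Of 228 tested genes with a RefSeq symbol, 5 rose and 31 fell.

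Of 4 genes of light sensing and DNA photorepair with a RefSeq symbol, *env1* and *phr1* were upregulated and 0 downregulated. Of all 228 tested genes with a RefSeq symbol, 5 were upregulated and 31 downregulated. The photoreceptor gene *env1* (TR_81609) had 351 and 316 CPM in light, against 8.48 and 10.5 CPM in darkness, which gave a log2 fold change with its standard error of 5.13 ± 0.16 (adjusted p = 1.2e-08 in edgeR, as in all sentences that follow). The photolyase gene *phr1* (TR_107680), whose product repairs ultraviolet damage in DNA with the energy of blue light, had 96.8 and 90.9 CPM in light, against 12.1 and 13.1 CPM in darkness (log2 fold change 2.89 ± 0.07, adjusted p = 3.1e-09). In both genes the light cultures lay far above the dark ones, with little spread within a group. The genes of the photoreceptor complex itself did not pass the threshold. Levels of *blr1* (TR_121962) were 172 and 171 CPM in light, against 163 and 175 CPM in darkness, and those of *blr2* (TR_124343) were 138 and 148 CPM in light, against 75.8 and 75.7 CPM in darkness, where the log2 fold change of 0.91 ± 0.05 (adjusted p = 4.9e-07) stayed under the 2-fold limit.

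The upregulated gene with the most counts was *min1* (TR_34493), with 24143 and 20554 CPM in light, against 235 and 199 CPM in darkness (log2 fold change 6.69 ± 0.88, adjusted p = 1.6e-04). It alone took 2.49 and 2.15% of the counts of a light library, against 0.0229 and 0.0198% of a dark one. Of the 5 largest rises the other 4 belonged to genes with no annotation in the sources used here: TR_54352, TR_103695, TR_110855 and TR_121135 were between 115- and 160-fold higher in light. TR_103695, for example, had 89.3 and 75.6 CPM in light, against 0.924 and 0.482 CPM in darkness. The fold of TR_54352 rests on 3 and 1 counts in the dark cultures, and its log2 fold change was between 6.62 and 8.37 when either was left out.

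Upregulated genes with a link to mating were *ste6*, *hpr1* and *mata1*, which were picked singly and not as a list. The transporter gene *ste6* (TR_62693), whose yeast homologue exports a mating pheromone, had 1259 and 1141 CPM in light, against 123 and 140.0 CPM in darkness (log2 fold change 3.19 ± 0.10, adjusted p = 1.3e-08). The pheromone receptor gene *hpr1* (TR_64018) had 44.7 and 44.1 CPM in light, against 16.9 and 22.2 CPM in darkness (1.17 ± 0.12, adjusted p = 3.0e-05). This rise was close to the 2-fold limit and was not called without dark culture 1, at a log2 fold change of 1.00. The gene *mata1* (TR_124341) rose 20.7-fold, with 287 and 267 CPM in light, against 12.9 and 13.8 CPM in darkness (4.37 ± 0.09, adjusted p = 2.7e-09).

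G-protein coupled receptors, which carry signals from outside the cell to the G-protein pathway, responded in both directions. Of 14 genes in the list of the pheromone system and such receptors, 6 were upregulated and 8 downregulated, with a median log2 fold change of -1.11 against -0.00 over all genes tested. The list includes *sitT*, an ABC transporter gene caught by the word pheromone in its annotation, and an arrestin gene. All 14 came from the annotation table, and of the 889 named genes tested 56 rose and 319 fell. A receptor gene of the PTH11 type, TR_69904, had 2.06 and 1.41 CPM in light, against 169 and 199 CPM in darkness (log2 fold change -6.75 ± 0.14, adjusted p = 2.7e-09). Another receptor gene of that type, TR_55561, went the other way, with 76.2 and 69.9 CPM in light, against 13.9 and 8.1 CPM in darkness (2.76 ± 0.17, adjusted p = 8.5e-07). The receptor gene *gpr1* (TR_123806) had 10.4 and 10.9 CPM in light, against 47.8 and 54.8 CPM in darkness (-2.27 ± 0.09, adjusted p = 6.2e-08).

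**Figure D2:**
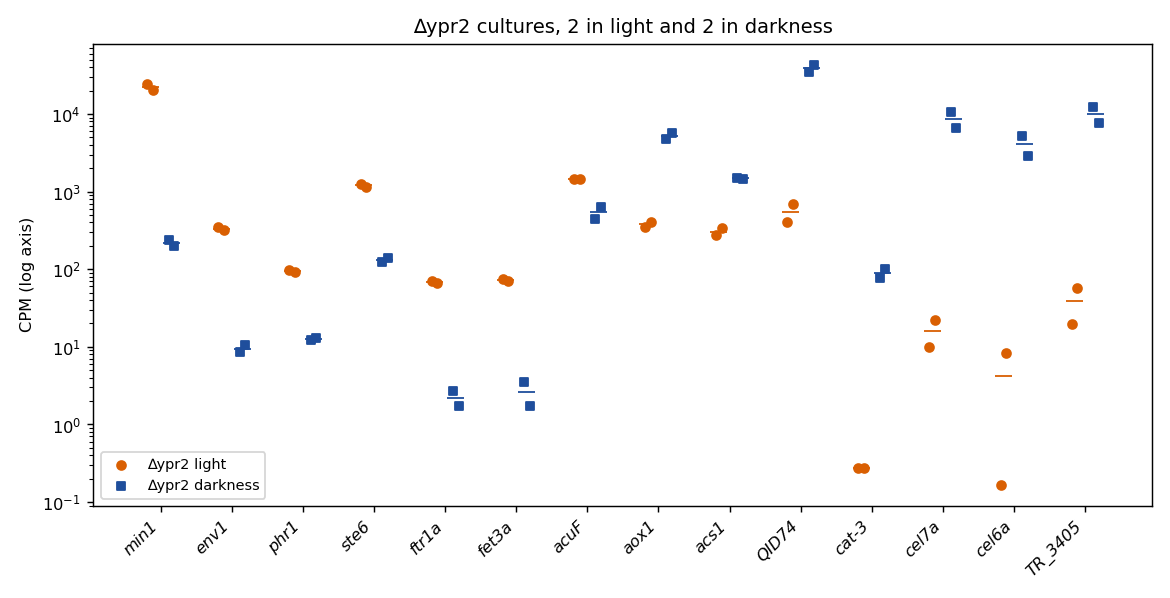
CPM of 14 genes in each ∆*ypr2* culture on a log axis, light as orange circles and darkness as blue squares, with a bar at the mean of the 2 cultures of a group. All 14 genes were called; for *cel6a* and TR_3405 the 2 light cultures lay apart, at 0.167 and 8.25 CPM and at 19.9 and 57.1 CPM.

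Genes of a siderophore cluster and a pair of reductive iron uptake genes were upregulated in ∆*ypr2* in light. Fungi take up iron by secreted siderophores, small chelators that bind ferric iron, or by reductive uptake through a permease and a multicopper oxidase. Of 14 genes in the list, 8 were upregulated and 2 downregulated in light, with a median log2 fold change of 2.44, beside 3.81 and 13.3% of all genes tested. Of the list, 9 genes are in the annotation table, and of the 889 named genes tested 56 rose and 319 fell. The 8 were the 6 cluster genes with *ftr1a* and *fet3a*. The reductive pair *ftr1a* (TR_54962), the permease, and *fet3a* (TR_102820), the oxidase, rose together. Levels of *ftr1a* were 70.2 and 67.1 CPM in light, against 2.72 and 1.71 CPM in darkness (log2 fold change 4.98 ± 0.14, adjusted p = 6.8e-09). Levels of *fet3a* were 75.5 and 69.8 CPM in light, against 3.48 and 1.71 CPM in darkness (4.85 ± 0.19, adjusted p = 4.8e-08). The second pair did not pass the test: *ftr1b* (TR_80639) had 45.9 and 56.5 CPM in light, against 55.4 and 60.2 CPM in darkness, and *fet3b* (TR_5119) had 33.5 and 35.7 CPM in light, against 31.1 and 35.1 CPM in darkness.

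All 6 genes of a siderophore cluster that lie next to each other in the genome were upregulated in light in ∆*ypr2*, at low levels. They are *sidD*, related to the peptide synthetases that assemble siderophores, *sidF* and *sidH*, related to enzymes that make their building blocks, *sidJ*, related to siderophore hydrolysis, and the transporter genes *sitT* and *mirB*. Levels of *sidJ* (TR_112590) were 13 and 16.5 CPM in light, against 0.272 and 0.263 CPM in darkness (log2 fold change 5.76 ± 0.39, adjusted p = 1.6e-06). Levels of *sidF* (TR_82628) were 14.8 and 19 CPM in light, against 0.706 and 0.701 CPM in darkness (4.58 ± 0.24, adjusted p = 2.6e-07). The other 4 rose 4.63-fold (*sidD*, TR_71005), 6.37-fold (*mirB*, TR_71008), 13.5-fold (*sitT*, TR_71010) and 39.9-fold (*sidH*, TR_6085), with between 1.95 and 6.75 CPM in light and less than a single CPM in darkness. Without dark culture 1 the log2 fold change of *sidH* was 6.02, against 5.32 with it. Under quantile normalization with limma the log2 fold changes were larger, at 3.62 against 2.21 (*sidD*), 4.31 against 2.67 (*mirB*), 5.36 against 3.75 (*sitT*) and 6.85 against 5.32 (*sidH*).

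In the wildtype the same 6 genes were all downregulated in light, and the difference of the light response between strains passed the test for each (edgeR interaction, 8 libraries). The study had singled out this cluster for its regulation in ∆*ypr2* in darkness and in light in these same libraries. Its calls in either strain, and those of the difference, are therefore not independent evidence. For *sidJ* the wildtype had 5.25 and 2.65 CPM in light and 19.1 and 22.9 CPM in darkness, and the log2 fold change of ∆*ypr2* exceeded that of the wildtype by 8.16 ± 0.46 (adjusted p = 1.8e-06). For *mirB*, with 0.109 and 0.231 CPM in light and 28.7 and 34.8 CPM in darkness in the wildtype, it did so by 10.17 ± 0.46 (adjusted p = 6.6e-07). For *ftr1a* the strains could not be distinguished at the threshold (difference 0.35 ± 0.25, adjusted p = 0.26), whereas the difference was called for *fet3a*, *fet3b* and *ftr1b*. On the downregulated side of the list were TR_60751, a peptide synthetase gene related to ferrichrome synthases, with 0.891 and 0.775 CPM in light, against 5.22 and 4.2 CPM in darkness, and the homologue of *sreA* (TR_4231), a repressor of siderophore genes in other fungi, with 44.5 and 50.1 CPM in light, against 95.6 and 119.5 CPM in darkness.

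**Figure D3:**
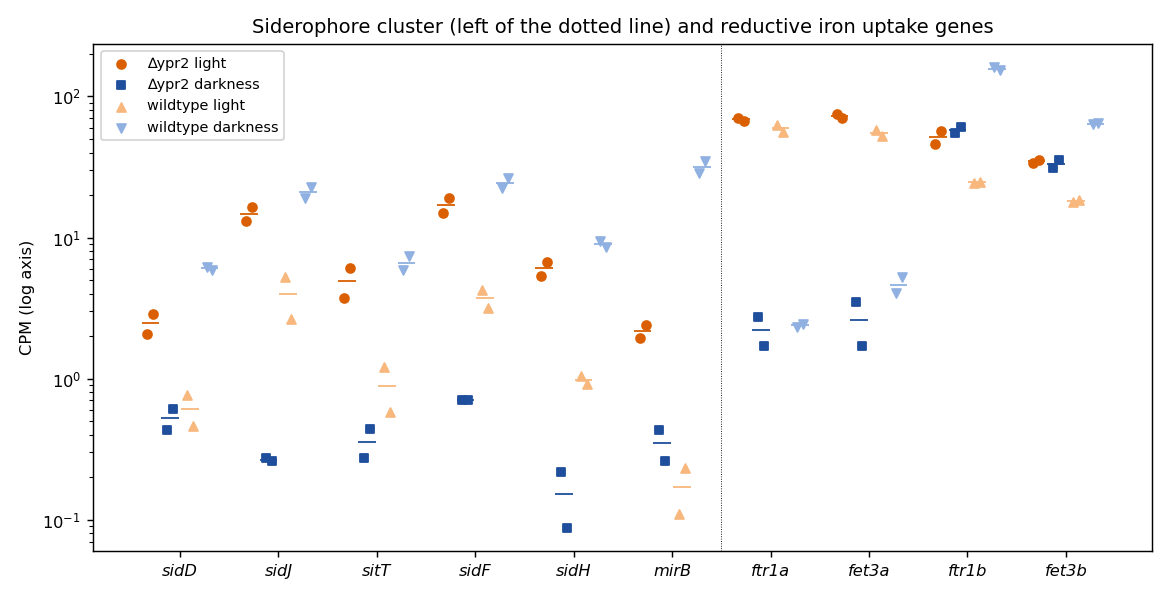
CPM on a log axis of the 6 siderophore cluster genes (left of the dotted line) and 4 reductive iron uptake genes in each culture of ∆*ypr2* light, ∆*ypr2* darkness, wildtype light and wildtype darkness, with a bar at each mean (n = 2). In the cluster the orange circles lie above the blue squares in ∆*ypr2*, while the light triangles lie below the dark triangles in the wildtype; *ftr1a* and *fet3a* were higher in light in both strains.

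Among transport and central metabolism genes, TR_44175, annotated as a proton-coupled sugar transporter of the major facilitator family, had 4300.4 and 3469 CPM in light, against 381 and 561 CPM in darkness (log2 fold change 3.04 ± 0.19, adjusted p = 8.7e-07). The phosphoenolpyruvate carboxykinase gene *acuF* (TR_124115), a key gene of gluconeogenesis, had 1432 and 1474 CPM in light, against 449.9 and 640.1 CPM in darkness (1.41 ± 0.14, adjusted p = 1.7e-05). A coenzyme A transferase gene, TR_50616, had 273 and 191 CPM in light, against 71.2 and 51.2 CPM in darkness (1.93 ± 0.18, adjusted p = 1.3e-05). For TR_44175 and TR_50616 the rise went against the direction of most of their list, while the list of *acuF* held no other gene. Of 43 major facilitator and sugar transporter genes, 6 rose and 22 fell, with a median log2 fold change of -1.17. Of 16 genes of two-carbon metabolism (alcohols, aldehydes and acetate), TR_50616 alone rose and 10 fell, including the SOR cluster gene *sor7*, which carries a matching annotation. Both lists came from the annotation table, and of the 889 named genes tested 56 rose and 319 fell.

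An elicitor-type gene also responded: TR_111442, annotated as *epl1*/*sm1*, a small secreted cerato-platanin protein that plants recognize, had 277 and 207 CPM in light, against 8.26 and 6.44 CPM in darkness (log2 fold change 5.05 ± 0.21, adjusted p = 5.8e-08). A second gene with that annotation was not called. Of 6 hydrophobin and cerato-platanin genes tested, TR_111442 was the 1 that rose, and 2 fell, *hfb5* and *ccg-14* (TR_82662, log2 fold change -2.23). The hydrophobin gene *hfb2* (TR_119989) had 15156 and 15124 CPM in light, against 7530.4 and 7956 CPM in darkness (0.97 ± 0.08, adjusted p = 7.6e-06), just short of the 2-fold limit, and *hfb5* (TR_106538) fell, with 19.2 and 23.8 CPM in light, against 119.6 and 92.8 CPM in darkness (-2.30 ± 0.14, adjusted p = 6.2e-07). Hydrophobins are small surface proteins of hyphae and spores. Among all genes tested 3.81% rose and 13.3% fell, and among the 889 of them with a name 56 rose and 319 fell. Of 70 transcription factor genes in the annotation table that were tested, 4 rose and 22 fell. The largest rise among these was in TR_34221, a *myb*-type regulator gene with 10.1 and 8.3 CPM in light, against 1.2 and 1.49 CPM in darkness, and the largest fall was in TR_122448, a C2H2 factor gene with 3.79 and 4.15 CPM in light, against 79.3 and 99.1 CPM in darkness.

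The strongest response in ∆*ypr2* was the loss of transcripts for plant cell wall degradation in light. Of all 228 tested genes with a RefSeq symbol, 31 were downregulated and 5 upregulated. Among them were 17 genes for cellulose and hemicellulose degradation, which include the cellulose-induced protein genes *cip1* and *cip2*. Of these 17, 15 were downregulated, 0 were upregulated, and the median log2 fold change was -9.06, against -0.00 over all genes. The 2 exceptions were the β-glucosidase gene *cel3b* (TR_121735), with 897 and 833 CPM in light, against 514 and 515 CPM in darkness, and the acetyl esterase gene *axe2* (TR_44214), with 92 and 90.9 CPM in light, against 129 and 131 CPM in darkness. The gene of the major cellobiohydrolase, *cel7a* (TR_123989), which releases cellobiose from the ends of cellulose chains, had 9.86 and 22 CPM in light, against 10514 and 6685 CPM in darkness (log2 fold change -9.06 ± 0.41, adjusted p = 9.9e-08). The second cellobiohydrolase gene, *cel6a* (*cbh2*, TR_72567), which is outside that list, had 0.167 and 8.25 CPM in light, against 5214 and 2877 CPM in darkness (-9.82 ± 0.77, adjusted p = 4.3e-06).

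Of the endoglucanase genes, whose products cut within the chains, *cel5a* and *cel7b* fell steeply, while *cel5b* (TR_82616) fell by 1.65 on the log2 scale. Levels of *cel5a* (TR_120312) were 0.0557 and 3.1 CPM in light, against 2774 and 1472 CPM in darkness (log2 fold change -10.28 ± 0.61, adjusted p = 5.9e-07), and *cel7b* (TR_122081) had 1 and 2.01 CPM in light, against 811 and 401 CPM in darkness (-8.61 ± 0.42, adjusted p = 1.6e-07). The oxidative enzymes of the former family 61, which attack crystalline cellulose, gave the same picture: *cel61a* (TR_73643) had 0 and 2.51 CPM in light, against 2078 and 1103 CPM in darkness, and *cel61b* (TR_120961) had 0.111 and 1.46 CPM in light, against 1951 and 1199 CPM in darkness. The β-glucosidase genes spread more widely. The fall was 158-fold for *cel3a* (TR_76672), 149-fold for *cel1a* (TR_120749), 10.3-fold for *cel1b* (TR_22197) and 7.56-fold for *cel3c* (TR_82227).

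Hemicellulose genes varied in the size of their response. The acetyl xylan esterase gene *axe1* (TR_73632), with the largest fall of an annotated gene, had 0.0557 and 0.182 CPM in light, against 618 and 299.9 CPM in darkness. The mannanase gene *man5a* (TR_56996) had 0.0557 and 0.821 CPM in light, against 645 and 369 CPM in darkness, and the xylanase gene *xyn2* (TR_123818), also outside that list, had 12.5 and 12.3 CPM in light, against 1179.9 and 1053 CPM in darkness (log2 fold change -6.49 ± 0.12, adjusted p = 2.7e-09). The fall was small in the α-galactosidase genes *agl1* (TR_72632), with a log2 fold change of -1.26 and a rise in the wildtype, and *agl2* (TR_124016), with -0.67 and no call, as in *axe2*. The putative lactose permease gene TR_3405 had 19.9 and 57.1 CPM in light, against 12186 and 7654 CPM in darkness (adjusted p = 8.0e-07). The gene TR_46819, annotated after a cellodextrin transporter, had 0.613 and 0.638 CPM in light, against 107 and 57 CPM in darkness.

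The remaining transcript of these genes in light was uneven between the 2 light cultures. Of 25 genes with at least 100 CPM in darkness that were at least 64-fold lower in light, 22 were higher in light culture 2 than in light culture 1, with medians of 0.256 and 0.115% of the dark level. Counts of *cel6a* were 181 in light culture 2 and 3 in light culture 1, and those of *cip1* (TR_73638), which encodes a cellulose-binding protein, were 47 and 0. In the dark cultures 21 of the 25 were higher in dark culture 1. Without light culture 2 the log2 fold change of *cel7a* was -9.77, that of *cel7b* was -9.23 and that of TR_3405 was -8.96. Without light culture 1 it was -8.94 for *cel6a* and -9.42 for *cel5a*, and without dark culture 1 it was -8.01 for *cel7b*. Another 12 of the 25 genes had 3 counts or fewer in light culture 1, and no fold is given for them without light culture 2. All 15 downregulated genes of the list passed the test without light culture 1 and without light culture 2.

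A difference of the light response between strains was called for 1 of the 17 genes, beside 14.3% of all genes tested. This was *cel5b* (TR_82616), an endoglucanase gene that fell in ∆*ypr2*, with 83.7 and 90.1 CPM in light, against 327 and 220.1 CPM in darkness, and had 85.2 and 85.8 CPM in light and 68.6 and 79.9 CPM in darkness in the wildtype (difference -1.86 ± 0.23, adjusted p = 1.5e-04). For *cel7a* the difference was 1.12 ± 0.45 (adjusted p = 0.063). A p that misses the threshold does not show equal responses.

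**Figure D4:**
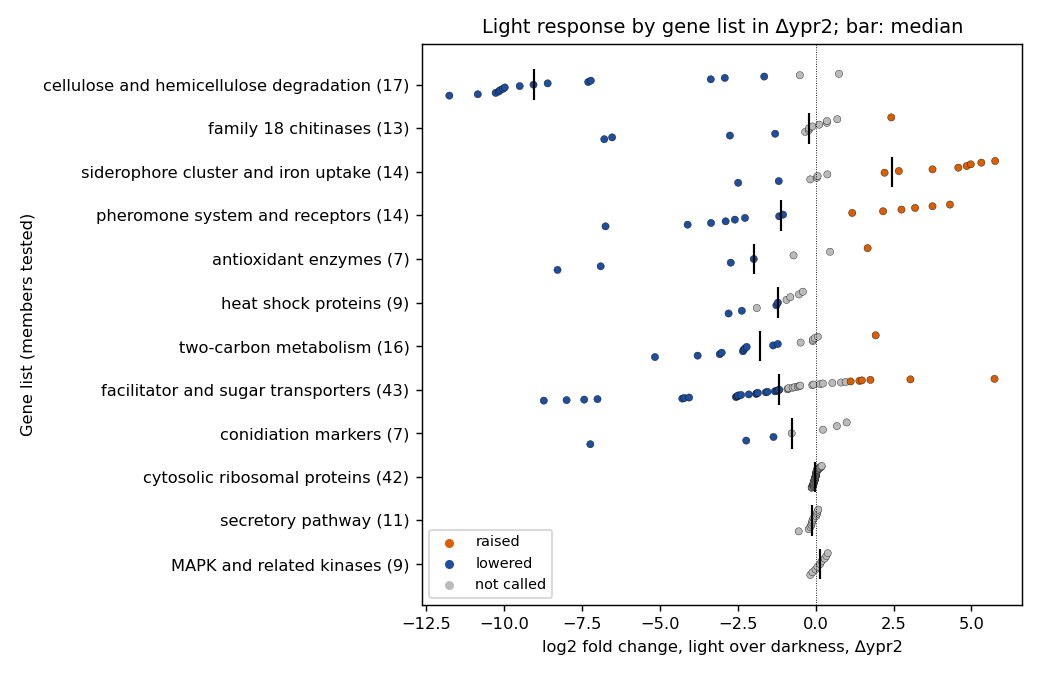
Log2 fold change of light over darkness in ∆*ypr2* for the tested members of 12 gene lists, 1 point per gene (orange upregulated, blue downregulated, grey not called), with a bar at the list median. Cellulose and hemicellulose genes reach the lowest values (median -9.06), siderophore and iron uptake genes lie mostly above 0 (median 2.44), and the 42 ribosomal protein genes sit at 0 (median -0.01).

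The downregulated gene with the most counts in darkness encodes a cell wall protein. The QID74 homologue TR_74282, related to a cysteine-rich cell wall protein of *Trichoderma harzianum*, had 402 and 684 CPM in light, against 34548 and 42775 CPM in darkness (log2 fold change -6.15 ± 0.27, adjusted p = 7.7e-08). It held 0.0416 and 0.0715% of the counts in light, against 3.37 and 4.26% in darkness. In the wildtype it had 142 and 154 CPM in light and 1254 and 1484 CPM in darkness, and the log2 fold change of ∆*ypr2* minus that of the wildtype was -2.94 ± 0.31 (adjusted p = 6.0e-05). All 6 genes in the list of effector-like and cell wall proteins, which were picked from the study, fell, beside 13.3% of all genes tested. Except for TR_121251, the study had named them for high levels in ∆*ypr2* in darkness in these same libraries. Their fall in light is therefore not independent evidence. TR_105533, a small cysteine-rich protein gene, had 197 and 307 CPM in light, against 1928 and 2509 CPM in darkness (-3.14 ± 0.25, adjusted p = 4.1e-06). TR_121251, related to an adhesin, had 164 and 156 CPM in light, against 1468 and 661 CPM in darkness (-2.73 ± 0.31, adjusted p = 5.2e-05), or -2.05 without dark culture 1.

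Chitinases cut chitin, the polymer of the fungal cell wall and a substrate when *Trichoderma* attacks other fungi. Of 13 family 18 chitinase genes tested by RefSeq symbol, 4 were downregulated, 1 was upregulated and 8 were not called, with a median log2 fold change of -0.22. Of all 228 tested genes with a RefSeq symbol, 31 were downregulated and 5 upregulated. The fall was steep in *chi18-12* (TR_43873), with 0.39 and 0.501 CPM in light, against 57.7 and 43.7 CPM in darkness (-6.79 ± 0.22, adjusted p = 1.6e-08). It was also clear in *chi18-5* (TR_80833), with 21.3 and 20.3 CPM in light, against 137 and 143 CPM in darkness (-2.75 ± 0.06, adjusted p = 3.0e-09). The exception was *chi18-9* (TR_72339), with 120.2 and 95.1 CPM in light, against 19.6 and 20.3 CPM in darkness (2.43 ± 0.11, adjusted p = 8.0e-08). The annotation table adds *chi18-18* (TR_66041), with 3.12 and 3.19 CPM in light, against 339.8 and 154 CPM in darkness, with a log2 fold change of -6.28 that was -5.61 without dark culture 1.

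Genes of enzymes against reactive oxygen fell in part in light. Of 7 antioxidant genes, all from the annotation table, 4 fell and 1 rose (median log2 fold change -1.99). Of the 889 named genes tested, 319 fell and 56 rose. Catalases, which split hydrogen peroxide, gave the largest falls: *cat-3* (TR_58472) had 0.279 and 0.274 CPM in light, against 76.6 and 99.8 CPM in darkness (-8.29 ± 0.24, adjusted p = 2.6e-08), and *cat-7* (TR_120371) had 0.557 and 0.821 CPM in light, against 75 and 94.3 CPM in darkness (-6.90 ± 0.19, adjusted p = 6.4e-09). The gene on the other side was the peroxiredoxin gene TR_55351, with 127 and 119 CPM in light, against 37.5 and 39.9 CPM in darkness (1.67 ± 0.06, adjusted p = 1.8e-08). Next to *cat-3* in the genome lay TR_76601, a sulfite oxidase gene that had 0.557 and 1.19 CPM in light, against 199 and 269.7 CPM in darkness (-8.01 ± 0.24, adjusted p = 9.6e-09), or -8.70 without light culture 2.

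Further lists from the annotation table held heat shock genes and genes of cytochrome P450 enzymes, the monooxygenases of secondary metabolism and detoxification. Of 9 genes in the heat shock and chaperone list 4 fell and 0 rose. This is near the share among the 889 named genes tested, of which 319 fell and 56 rose. The 5 genes not called included Hsp30 (TR_62100, log2 fold change -0.94), an HSP104 gene (TR_80142, -0.81) and an Hsp70 family gene (TR_65819, -0.54). The list includes TR_103739, annotated as an Hsp27-ERE-TATA-binding protein. It also includes TR_81420, a subunit of an Argonaute siRNA chaperone complex, which is among the 4. Another of the 4 was the small heat shock gene TR_46285 (Hsp26/Hsp42), with 72.5 and 149 CPM in light, against 441 and 711 CPM in darkness (log2 fold change -2.37, or -2.99 without light culture 2). Of 10 P450 genes, all from the annotation table, 7 fell and 1 rose. The largest fall of these was in TR_64900, with 1 and 2 counts in the light cultures, against 395 and 527 counts in the dark cultures, a ratio of dark over light of 297 with a 95% counting interval from 101 to 1444. Of 13 polyketide, peptide and terpene synthase genes, 2 rose and 4 fell, beside 3.81 and 13.3% of all genes tested. The pigment gene *pks4* (TR_82208) had 9.58 and 11.7 CPM in light, against 139.5 and 121 CPM in darkness (log2 fold change -3.60 ± 0.11, adjusted p = 1.1e-08), and TR_123786, a predicted paracelsin synthase gene, had 293 and 351 CPM in light, against 68.8 and 85.1 CPM in darkness (2.06 ± 0.11, adjusted p = 3.7e-07).

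In two-carbon and sugar metabolism the alcohol oxidase gene *aox1* (TR_80659) had 349 and 407 CPM in light, against 4695 and 5757 CPM in darkness (log2 fold change -3.79 ± 0.15, adjusted p = 4.6e-08). The acetyl-CoA synthetase gene *acs1* (TR_73774) had 274 and 337 CPM in light, against 1494 and 1468 CPM in darkness (-2.28 ± 0.10, adjusted p = 1.1e-07), and the xylose reductase gene *xyl1* (TR_107776) had 147 and 141 CPM in light, against 776 and 624 CPM in darkness (-2.28 ± 0.11, adjusted p = 1.2e-07). The glyoxylate cycle genes *acu3* (TR_21758), with 621 and 645 CPM in light, against 608 and 685 CPM in darkness, and *acu9* (TR_79271), with 359 and 369 CPM in light, against 284 and 333 CPM in darkness, were not called. Nor were the 5 glycolysis and pentose phosphate genes with a symbol, whose log2 fold changes lay between -0.82 and -0.02.

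Of 6 genes tested in the SOR cluster, of which *ypr2* is a part, *sor4* rose and *sor7* fell in ∆*ypr2*, beside 3.81 and 13.3% of all genes tested. The other 4 had log2 fold changes below 0 and were not called, and the median of the 6 was -1.92. Among these 4, *sor2* (TR_73621) had -0.83, and *sor5* (TR_73623) had 0 counts over both light cultures, against 21 over both dark cultures. The polyketide synthase gene *sor1* (TR_73618) had 14.3 and 16.5 CPM in light, against 26 and 29 CPM in darkness, and was not called. The transporter gene *sor4* (TR_43701) had 148 and 158 CPM in light, against 87.1 and 54 CPM in darkness (log2 fold change 1.12 ± 0.18, adjusted p = 5.8e-04), which was 0.82 and no longer called without dark culture 2. For *sor7* (TR_73631) the 2 dark cultures disagreed, with 53.2 and 12.4 CPM, against 4.01 and 3.97 CPM in light. Its fall was not called when either light culture was left out or under limma-voom. It was also not called in an edgeR fit of the 4 ∆*ypr2* libraries alone (adjusted p = 0.0103). Without dark culture 1 its log2 fold change was -1.63, against -3.02 with it. The second regulator gene, *ypr1* (TR_102499), had 0 counts in both light cultures and was at least 23.2-fold lower in light by a floor of 3 counts over the group, without passing the test (adjusted p = 0.011). It was called by DESeq2, limma-voom and the exact test of edgeR, among other settings, and not called with either light culture left out.

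Spore formation can change the cell types in a culture, so conidiation markers were examined. Of 7 conidiation markers, 3 fell and 0 rose in light in ∆*ypr2*: *con-13* (TR_105808), with 0 and 0.0456 CPM in light, against 4.51 and 4.99 CPM in darkness, *ccg-14* (TR_82662), with 9.25 and 16.6 CPM in light, against 75.1 and 48.5 CPM in darkness, and *ccg-13* (TR_59151), with 29.6 and 63.7 CPM in light, against 137 and 105 CPM in darkness. The call of *ccg-13* was lost without light culture 1, at -0.92, and in an edgeR fit of the 4 ∆*ypr2* libraries alone (adjusted p = 0.0114). For *con-13*, with a single count in light, the ratio of dark over light counts was 191 with a 95% counting interval from 33.8 to 7565. The others had log2 fold changes of 1.00 ± 0.20 (*con-10*, TR_5084, adjusted p = 2.4e-03), 0.68 ± 0.11 (*dtr1*, TR_102953), 0.23 ± 0.08 (*ccg-1*, TR_73516) and -0.77 ± 0.07 (*medA*, TR_123713). The value of *con-10* lay just under the limit and passed it under DESeq2. Summed over the 7 markers, the level was 1576 and 1616 CPM in light, against 1770 and 1721 CPM in darkness. Most of this sum came from *ccg-1* and *medA*, with means of 1093 and 418 CPM over the 4 ∆*ypr2* cultures. It therefore says little about the weaker markers. The 3 falls stand beside 319 of 889 named genes tested, and the part of spore formation in the other results was not tested.

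Several groups held no called gene. None of 42 cytosolic ribosomal protein genes passed the test, with log2 fold changes from -0.13 to 0.19. The same was true of 6 proteasome subunits (-0.03 to 0.13), 5 histone genes (-0.02 to 0.18), 11 secretory pathway genes (-0.54 to 0.08), 9 genes of G-protein and cAMP signalling (-0.92 to 0.31) and 9 kinase genes of MAPK and related pathways (-0.17 to 0.39). The lowest values of the signalling and secretory lists, -0.92 in the protein kinase A gene *pkac2* (TR_65873, adjusted p = 3.9e-05) and -0.54 in the syntaxin gene *sso1* (TR_63754, adjusted p = 3.4e-05), had small p values but stayed under the 2-fold limit. All of these lists were built from RefSeq symbols, and of the 228 tested genes with such a symbol 5 rose and 31 fell. Beside that share, a count of 0 says little for the lists of 5 to 11 genes.

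Some of the light-responsive genes lay side by side. In RefSeq gene order, 81 runs of at least 3 neighbouring genes were all downregulated and held 304 of the 1123 genes, while 6 runs of at least 3 were all upregulated and held 23 of the 322 upregulated genes that could be placed. The longest upregulated run was the siderophore cluster with its 6 genes, none of which had the same call in the wildtype. A downregulated run held *axe1*, *cip1* and *cel61a* with TR_102500 beside them, and each of the 4 was also downregulated in the wildtype. Runs of 7 downregulated genes included one that starts at *aox1*. The number of runs expected by chance was not determined.

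Most of the upregulated genes responded in the wildtype as well. Of 323 genes upregulated in ∆*ypr2*, 248 (76.8%) were also upregulated in the wildtype, where they made up 31.2% of 796 upregulated genes (9.4% of those tested). Of 1123 downregulated genes, 722 (64.3%) were also downregulated in the wildtype, 59% of its 1223 (14.4% of those tested). The light comparisons of the strains share no library. A call in a single strain does not show a difference, so the difference itself was tested: the response was more positive in ∆*ypr2* for 503 genes (5.94% of those tested) and more negative for 709 (8.37%). In darkness 820 genes (9.68%) were higher and 512 (6.05%) lower in ∆*ypr2* than in the wildtype, while in light 32 (0.378%) were higher and 12 (0.142%) lower, 0.52% in all. The study reports that ∆*ypr2* formed much less biomass than the wildtype in darkness, with no significant difference in light. The part of growth in the differences between strains, those of the iron genes included, was not tested. Of 362 genes downregulated by call in ∆*ypr2* alone the difference was called for 178, and of 62 genes upregulated by call in ∆*ypr2* alone it was called for 25. Of 509 genes upregulated and 488 downregulated by call in the wildtype alone, it was called for 271 and 243.

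**Figure D5:**
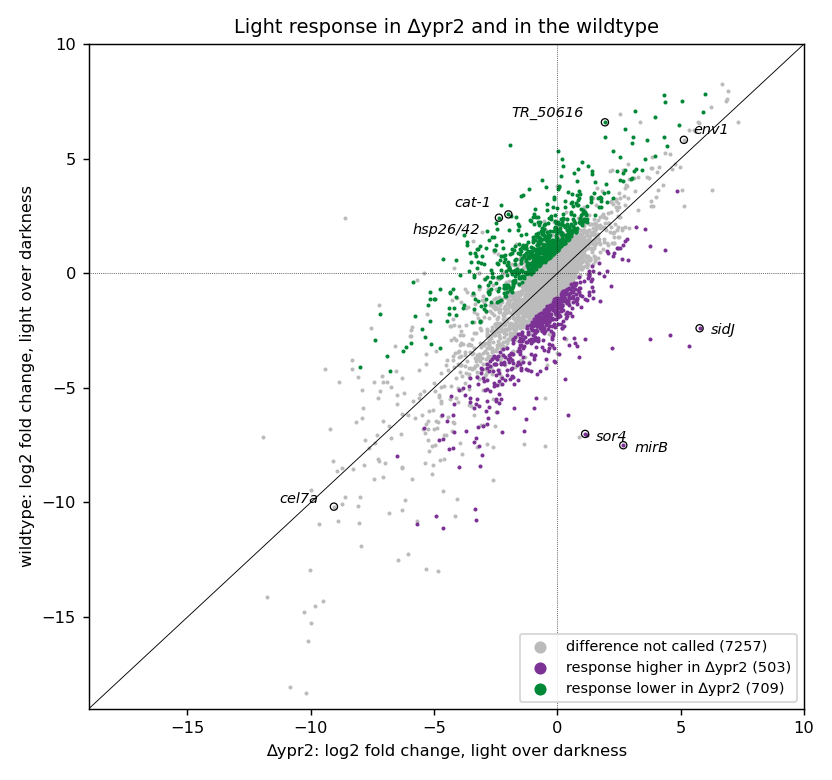
Log2 fold change of light over darkness in ∆*ypr2* (horizontal) and in the wildtype (vertical) for the 8469 genes tested, with genes whose response was called higher in ∆*ypr2* in purple (503), lower in ∆*ypr2* in green (709) and not called different in grey (7257). Points on the diagonal have the same fitted response in both strains; *sidJ*, *mirB* and *sor4* lie at the lower right, raised in ∆*ypr2* and lowered in the wildtype.

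Opposite responses were found in 52 genes. The 13 genes that rose in ∆*ypr2* and fell in the wildtype comprised the 6 siderophore cluster genes, *sor4*, an ATPase gene (TR_75247), a high affinity ammonium transporter gene (TR_82204) and 4 genes without annotation. TR_82204 had 6.63 and 6.52 CPM in light, against 2.17 and 1.84 CPM in darkness in ∆*ypr2*, and 4.48 and 2.83 CPM in light, against 7.06 and 10 CPM in darkness in the wildtype. The 39 genes that fell in ∆*ypr2* and rose in the wildtype included the catalase gene *cat-1* (TR_67538), which had 24.4 and 21.5 CPM in light, against 90.8 and 91 CPM in darkness in ∆*ypr2*, and 21.2 and 25.8 CPM in light, against 3.97 and 3.94 CPM in darkness in the wildtype (difference -4.55 ± 0.16, adjusted p = 1.7e-07). They also included TR_44956, a putative transporter gene, with 475 and 544 CPM in light, against 1478 and 1497 CPM in darkness in ∆*ypr2*, and 653 and 639 CPM in light, against 152 and 156 CPM in darkness in the wildtype (-3.62 ± 0.10, adjusted p = 9.2e-08). The light levels of *cat-1* overlapped between strains, and the dark levels did not. The rise of TR_75247 in ∆*ypr2* was not called without either light culture or without dark culture 2 (adjusted p = 0.014, 0.011 and 0.025). TR_75247 and TR_82204 were named after their values were seen.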

How the data were processed

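RNA of 8 cultures was sequenced with short single reads. Per the labels and the study's methods, the authors aligned the reads with Bowtie2, used SAMtools and bedtools, and estimated transcript values with RSEM. No source at hand names versions or the genome build. The deposited table is named FPKM, yet its values are expected counts: 71.8 to 80.6% were whole as written and totals differed between libraries. No column was without a sample.

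Expected counts were rounded and tested with the two-sided quasi-likelihood F test of edgeR 4.0.16 (R 4.3.3; TMM scaling, 1 mean for each of 4 groups over all 8 libraries, 4 residual degrees of freedom, prior count 0.125). Of 9143 genes, 8469 reached 0.5 CPM in 2 or more libraries and 674 did not and were left out. A call required an adjusted p under 0.01 and at least 2-fold. Contrasts were the light response of either strain, their difference, and the strains within a light condition. An exact permutation test of 2 against 2 cultures cannot go below p = 0.333, so none was made. Folds against 0 counts used a floor of 3 counts over the group. Intervals cover counting error only. The fit was tested on simulated data with known changes.

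Named were *ypr2*, genes the study gives with an ID, the 15 largest annotated and 5 largest overall changes each way, the 8 largest annotated differences each way, the 5 annotated genes with most counts each way and up to 4 called members of a list per direction. Except for genes the study names and those with most counts, a mean of 5 CPM was required. *blr1*, *blr2*, *hfb2*, *cel3b*, *axe2*, *cel3a*, *cel3c*, *cel1a*, *cel1b*, *cel5b*, *xyn2*, *acu3*, *acu9*, *agl1*, *agl2*, *pkac2*, *sso1*, *con-10*, *con-13*, *dtr1*, *ccg-1*, *medA*, TR_102500, TR_75247 and TR_82204 were added outside the rule. The comparison, lists and members were chosen with earlier results of these data known, and lists by RefSeq symbol were built after the table was seen. Names came from 235 RefSeq symbols (assembly v2.0), the study and its annotation table of 1142 genes. Promoter motifs were not analysed here.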

Additional observations from a re-analysis of the deposited data

Results flagged for a closer look

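The light response differed between ∆*ypr2* and the wildtype by a test of the difference itself (edgeR, adjusted p under 0.01 and at least 2-fold) for 503 genes with a more positive and 709 genes with a more negative response in ∆*ypr2*. The following genes had the 8 largest differences each way among annotated genes averaging 5 CPM or more over the ∆*ypr2* cultures, given as the log2 fold change of light over darkness in ∆*ypr2* minus that in the wildtype.

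The more positive differences were 8.16 in *sidJ* (TR_112590), 8.13 in *sor4* (TR_43701), 7.29 in *sidF* (TR_82628), 5.56 in the cobalamin synthesis protein gene TR_61227, 5.25 in TR_105449 (annotated as a cyclin C-dependent kinase), 4.84 in the small cysteine-rich protein gene TR_111915, 4.09 in the dehydrogenase gene TR_60518 and 3.61 in the Zn2Cys6 regulator gene TR_121415. The last 5 fell in both strains, although the fall of TR_61227 in ∆*ypr2* (-1.34) was not called without light culture 1, light culture 2 or dark culture 2 (adjusted p = 0.026, 0.011 and 0.023). TR_111915, for example, had 8.08 and 9.39 CPM in light, against 78.5 and 69.4 CPM in darkness in ∆*ypr2*, and 5.03 and 3.17 CPM in light, against 991 and 1001 CPM in darkness in the wildtype. For TR_105449 the wildtype light cultures held 2 counts in all, so its fitted difference is uncertain, and it was not called without ∆*ypr2* light culture 2 (4.98, adjusted p = 0.017).

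The more negative differences were -5.47 in the RNA helicase gene TR_121785, -5.30 in the aspartyl protease gene TR_53961, -5.28 in the oxidoreductase gene TR_59322, -5.23 in the NADH dehydrogenase gene TR_60352, -4.89 in the Zn2Cys6 regulator gene TR_106259, -4.79 in the small heat shock gene TR_46285, -4.70 in the permease gene TR_62380 and -4.66 in the coenzyme A transferase gene TR_50616. The difference of TR_46285 was -5.41 without ∆*ypr2* light culture 2 and -5.55 without wildtype dark culture 2. TR_121785 had 1.06 and 1 CPM in light, against 50.1 and 68.7 CPM in darkness in ∆*ypr2*, and 1.15 and 1.44 CPM in light, against 1.52 and 1.85 CPM in darkness in the wildtype. TR_53961 had 28.5 and 26.4 CPM in light, against 26 and 27.6 CPM in darkness in ∆*ypr2*, and 51.3 and 48.9 CPM in light, against 0.978 and 1.51 CPM in darkness in the wildtype.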

How the results depend on the processing

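The numbers of genes up- and downregulated in light (323 and 1123) each stayed within 1.5 times of these under DESeq2, limma-voom, the exact test of edgeR, other size factors, other filters, an adjusted p under 0.05, an unadjusted p under 0.01 and a fit of the 4 ∆*ypr2* libraries alone. They moved under quantile normalization with limma to 635 upregulated genes, with no fold limit to 1629 and 2113, and with a 4-fold limit to 141 and 626. Genes whose response was higher or lower in ∆*ypr2* than in the wildtype (503 and 709) numbered 1528 and 1633 with no fold limit and 155 and 275 with a 4-fold limit. Leaving out 1 library at a time gave 294 to 332 upregulated and 1014 to 1144 downregulated genes, and 437 to 586 higher and 608 to 727 lower responses.

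A replicate block gave 320 and 1114 genes for light and 501 and 701 for the difference. Deviations of equally numbered libraries correlated between -0.094 and 0.0992, so the numbers do not pair the cultures.

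Uncalled values near 0 changed sign when 1 library was left out: TR_53961 ranged from -0.021 to 0.088 (-0.0084 without dark culture 1), *fet3b* (TR_5119) from -0.019 to 0.16, *blr1* (TR_121962) from -0.026 to 0.074 and *acu3* (TR_21758) from -0.11 to 0.060, with 0.026 under quantile normalization. No gene called in the reported fit was called in the other direction under any of these settings. Quantile normalization moved other printed folds by over 1.5 times on the linear scale. It gave log2 fold changes of 7.35 for *sidJ* (TR_112590), 5.42 for *sidF* (TR_82628), 5.60 for *ftr1a* (TR_54962) and 5.46 for *fet3a* (TR_102820). It also gave 1.69 for *con-10* (TR_5084), -2.26 for *sor7* (TR_73631), -7.69 for *cat-3* (TR_58472), -10.97 for *cel6a* (TR_72567) and -11.29 for *cel5a* (TR_120312). For the 4 largest rises without annotation it gave 7.46 to 8.60. Depth limits the lowest light levels, where a few counts decide the fold. With 2 cultures per group from a single deletion strain, p values rest on a spread between replicate cultures estimated over all 8 libraries, the wildtype included. The 2 ∆*ypr2* cultures from darkness lay further apart than those of any other group. The p values can therefore understate the spread within that group. Causes of these changes were not tested.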
